A study of Mus musculus with 22 samples.

Results

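The genes described here are 7 factors of nonsense-mediated mRNA decay, Upf1, Upf2, Upf3a, Upf3b, Smg1, Smg5 and Smg6, out of 55487 genes listed in each of the 2 deposited tables. They were chosen by name, because the human counterpart of DUX, DUX4, is known to inhibit this decay, and all 7 passed the filter on low values. RNA was sequenced from Dux-/- mouse embryonic stem cells, so every group lacks the endogenous Dux gene, and every group carried a transgene and received 0.25 ug/mL doxycycline for 12 hours, started 24 hours after the cells had been plated. DUX, a transcription factor with a pair of homeodomains, turns on genes of the 2-cell embryo. In the control group, mCherry, the transgene coded for the red fluorescent protein mCherry alone, and in FL it coded for mCherry joined to full-length Dux. The other groups carried mCherry-tagged Dux derivatives named C3+14, C1+14, C1C3a, C1C3b, C1C3c, C12345delt14, deltC12345+14 and deltC12345delt14, and the labels do not spell out the parts of these names. A further group, C3delt14, was not analysed here. Each group had 2 replicates, and nothing in the labels says that they were separate cultures or whether a line was a clone or a pool, so p-values measure only the spread between these libraries.

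Nonsense-mediated decay removes mRNAs on which the ribosome stops too early. UPF1, an RNA helicase, is its central factor, and UPF2 joins it to UPF3A or UPF3B, which contact the exon junction complexes left by splicing. The kinase SMG1 phosphorylates UPF1, and phosphorylated UPF1 is bound by SMG5, which helps to recruit deadenylation and decapping enzymes, and by SMG6, an endonuclease that cuts the mRNA near the stop codon. In mouse embryonic stem cells the pathway is known for its part in the exit from pluripotency, and several of its factors are themselves targets of the decay.

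Promoter sequences are shown for 3 members with contrasting values: Smg5 and Upf2, which had the largest decreases of the 7 in FL, and Upf3a, which did not decrease. Each line gives the 120 bases before the RefSeq start site (GRCm38.p6, 5′ to 3′), with matches to GGGCGG and CCAAT on either strand in capitals.
Smg5 (chr3:88336140-88336259, plus strand): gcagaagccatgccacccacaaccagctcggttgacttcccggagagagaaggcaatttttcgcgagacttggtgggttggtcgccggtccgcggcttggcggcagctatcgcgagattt
Upf2 (chr2:5951349-5951468, plus strand): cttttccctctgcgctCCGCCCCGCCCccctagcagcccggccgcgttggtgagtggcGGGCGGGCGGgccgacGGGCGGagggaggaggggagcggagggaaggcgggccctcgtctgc
Upf3a (chr8:13785495-13785614, plus strand): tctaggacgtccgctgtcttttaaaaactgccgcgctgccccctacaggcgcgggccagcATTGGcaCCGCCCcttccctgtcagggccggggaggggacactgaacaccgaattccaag
In the full windows, 250 bases before to 50 bases after the start, GGGCGG (the GC box of SP1-type factors) was found in 6 of 7 members and in 35.7% of all 32851 RefSeq promoters, both strands being searched. Smg5 was the member without it, while Upf2 held 5 matches and Upf3a held 1. CCAAT was found in 3 of 7 members, Upf3a, Upf3b and Smg1, against 37.4% of all promoters. The site bound by DUX, searched as TGATT and AATCA with 1 base of any kind between them, was found in 0 of 7 members and in 11 of all promoters (0.0335%). These matches describe letters in a window and not bound sites.

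The values are deposited read counts divided by 1 size factor per library, called normalised reads below, and they come in 2 tables, each with its own scaling by the authors. One, called the chimera table, holds mCherry, FL, C3+14, C1+14 and the C1C3 groups (14 libraries), and the deletion table holds FL, C12345delt14, deltC12345+14 and deltC12345delt14 (8 libraries). FL was deposited in both tables with identical reads. Library totals were 21059953 to 32543856 reads in the chimera table and 27326760 to 40448890 in the deletion table, and 1 read was worth 0.620 to 1.81 normalised reads. Of 7 stem cell markers (Pou5f1, Sox2, Nanog, Zfp42, Esrrb, Klf4 and Tdgf1), all were detected, with sums of 69558 to 69886 normalised reads in mCherry, 32919 to 44563 in FL and 22564 to 24668 in C1C3b, the lowest group. The sum of 5 markers of the 2-cell state was 0.660 to 0.858 in mCherry, with 4 of 5 at 0, and 724266 to 1351880.0 in FL. Markers of trophectoderm, primitive endoderm, mesoderm and neural cells, and fibroblasts summed to at most 401 normalised reads per list in the chimera table, in bulk samples where fewer cells of a type and less RNA per cell cannot be told apart. That top sum was of the 3 primitive endoderm markers in C1C3b, at 322 to 401 against 29.7 to 35.2 in mCherry and 59.5 to 79.6 in FL, and the part of these markers in the results below was not tested. Libraries also differed in how many of their reads lay in 1617 high-copy genes (genes whose sequence recurs in many others), a share of 1.71% to 2.65% in one kind and 0.351% to 0.476% in the other. Both libraries of mCherry and of C3+14, replicate 2 of deltC12345+14 and replicate 1 of deltC12345delt14 were of the low kind, and the rest were of the high kind.

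FL was set against mCherry to ask how the decay factors stood after induction of full-length DUX. Of the 7 members, 4 fell (Smg5, Upf2, Upf3b and Smg1), where a call needed a Benjamini-Hochberg adjusted p under 0.05 and a change of at least 2-fold in limma. Among all 21584 genes tested, 19.6% were called lower and 24.5% higher (44.2% in either direction). The median log2 fold change was -1.28 over the 7 members and 0.09 over all genes tested. By the adjusted p alone, 6 members were lower and 1, Upf3a, was higher, where 27.4% of all genes were lower and 33.2% higher. FL and mCherry differ in the kind of library as well as in the construct, and the 2 cannot be told apart in this comparison.

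Smg5 (ENSMUSG00000001415, GRCm38 chromosome 3, 88336260 to 88362338, plus strand), the adaptor that brings decay enzymes to phosphorylated UPF1, had 3469 and 3813 normalised reads in the mCherry libraries and 682 and 589 in FL. FL lay far below mCherry, with no overlap, at 17.5% of the mCherry mean. The log2 fold change was -2.52 (SE 0.15, limma adjusted p 1.00e-08). Upf2 (ENSMUSG00000043241, chromosome 2, 5951469 to 6056703, plus strand), the bridge between UPF1 and UPF3, had 1840.2 and 1874 in mCherry and 362 and 308 in FL. Here too the groups did not overlap, and the log2 fold change was -2.47 (SE 0.27, limma adjusted p 4.07e-06). Upf3b (ENSMUSG00000036572, chromosome X, 37091678 to 37110322, minus strand), the more active of the UPF3 pair in decay, had 901 and 842 in mCherry and 352 and 227 in FL. The FL libraries were spread more widely than for Smg5, but both were low, with a log2 fold change of -1.62 (SE 0.31, limma adjusted p 5.52e-04). Smg1 (ENSMUSG00000030655, chromosome 7, 118131308 to 118243670, minus strand), the kinase of UPF1, had 3136 and 3338 in mCherry and 1207 and 1479.7 in FL. Its libraries did not overlap and its log2 fold change was -1.28 (SE 0.17, limma adjusted p 2.48e-05).

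The other 3 members did not reach a 2-fold change in FL. Upf1 (ENSMUSG00000058301, chromosome 8, 70331525 to 70353278, minus strand), the helicase, had 2213 and 2338 normalised reads in mCherry and 1219.9 and 1070.2 in FL. FL stood at 50.3% of mCherry without overlap, just short of the 2-fold limit, with a log2 difference of -0.99 (SE 0.12, limma adjusted p 7.61e-06). Smg6 (ENSMUSG00000038290, chromosome 11, 74925823 to 75164448, plus strand), the endonuclease, had 1017 and 1053 in mCherry and 656 and 504 in FL, a log2 difference of -0.85 (SE 0.15, limma adjusted p 2.41e-04). Both genes overlap others in the annotation, Upf1 with Cers1 and Gdf1 and Smg6 with Srr and several short genes, all on the opposite strand. Smg1 overlaps Gm25683 on the opposite strand and Gm45084 on its own, and whether counting used strand is not given in the sources used here. Upf3a (ENSMUSG00000038398, chromosome 8, 13785615 to 13799193, plus strand), the weaker paralog of Upf3b, was the member with higher values in FL, 1694 and 1503 against 1108 and 1066 in mCherry. The groups did not overlap, and the log2 difference was 0.55 (SE 0.13, limma adjusted p 0.00182). The paralogs shared little sequence, since at most 1.10% of the 50-base words of any member occur in another gene.

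**Figure D1:**
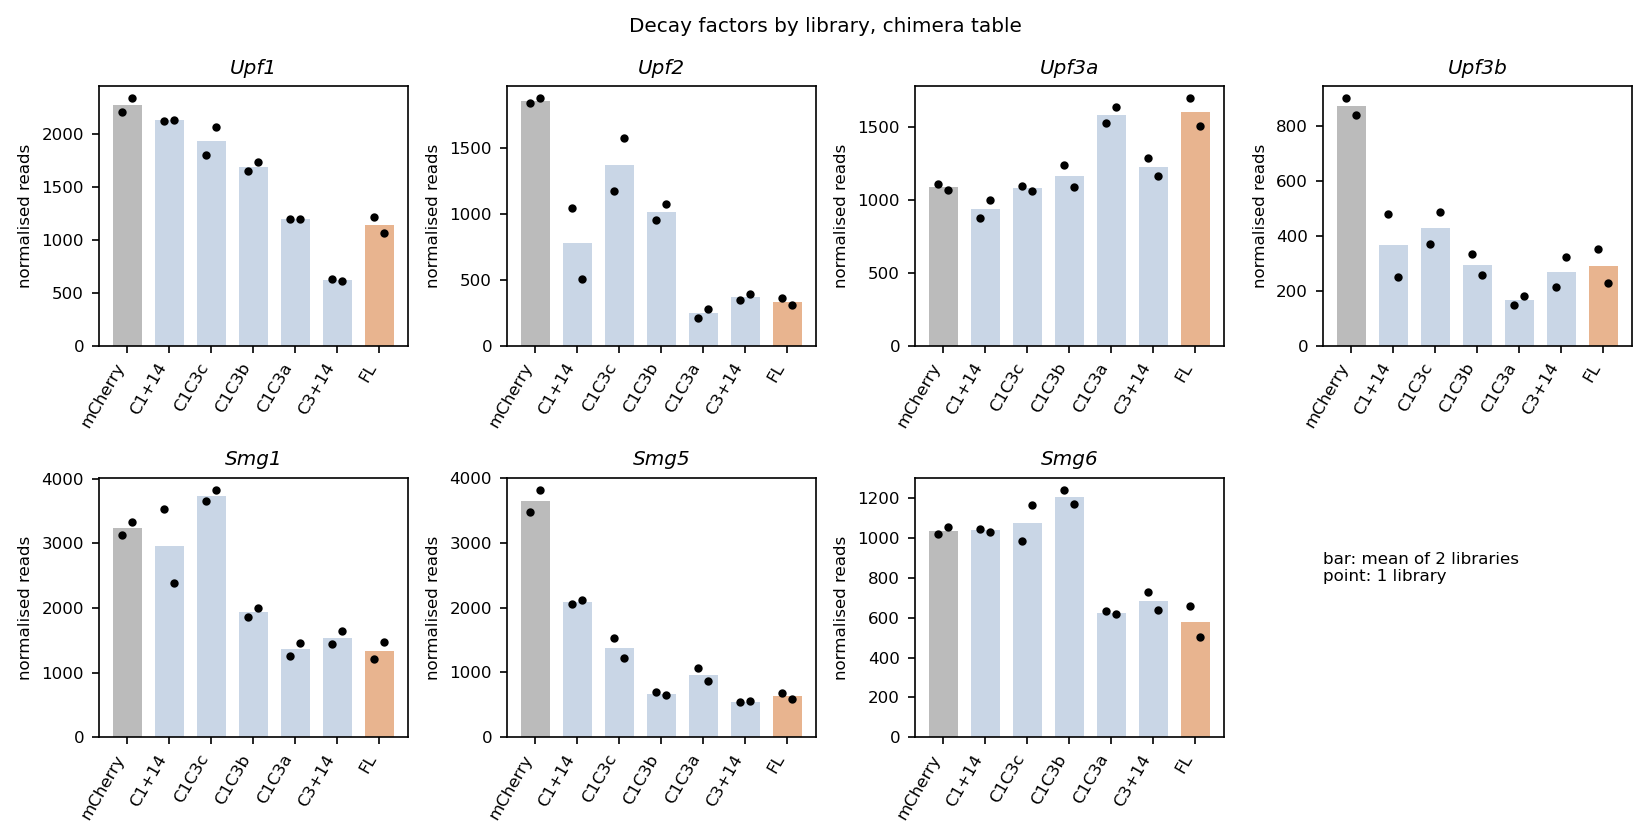
Normalised reads of the 7 decay factors in the chimera table, 1 panel per gene; groups are on the x axis, bars are the mean of 2 libraries and points are single libraries. Smg5, Upf2, Upf3b and Smg1 stand low in FL, C3+14 and C1C3a, whereas Upf3a reaches its top mean of 1599 in FL.

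The 5 derivatives of the chimera table were set against the same mCherry libraries, so their values stand side by side and are not independent of the FL comparison. In C3+14, 5 of 7 members fell (17.7% of all genes were called lower), and Upf1 was among them. Upf1 had 633 and 617 normalised reads in C3+14, which is 27.5% of mCherry and below every other library of the table, with a log2 fold change of -1.86 (SE 0.12, limma adjusted p 1.85e-08). Smg5 had 543 and 554, the lowest mean of the 7 groups, and Upf2 had 350.2 and 395. Their log2 fold changes were -2.73 and -2.32 (limma adjusted p 4.54e-09 and 6.79e-06). The C3+14 and mCherry libraries are all of the kind with the low high-copy share, so these 5 decreases were measured within 1 kind of library.

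In C1C3a, 4 of 7 members fell, the same 4 as in FL (19% of all genes were called lower). The libraries of C1C3a, C1C3b and C1C3c, like those of FL, are of the high kind by high-copy share, and those of mCherry are of the low kind. Construct and kind of library therefore cannot be told apart when these groups are set against mCherry. Upf2 had its lowest values of the table in C1C3a, 214 and 283 normalised reads or 13.4% of mCherry, a log2 fold change of -2.91 (SE 0.27, limma adjusted p 7.43e-07). Upf3b was also lowest in C1C3a, at 149 and 181 and a log2 fold change of -2.40 (SE 0.31, limma adjusted p 1.93e-05). In C1C3b, 2 members fell (17.1% of all genes were called lower): Smg5, at 696 and 649.6 and a log2 fold change of -2.43, and Upf3b, at 335 and 257 and -1.57. Upf2 in C1C3b was at 956 and 1074, about 54.6% of mCherry, and was not called. In C1C3c the same pair fell (10.5% of all genes were called lower), with log2 fold changes of -1.41 for Smg5 and -1.04 for Upf3b. The Upf3b call was close to the limit, since it was lost under quantile normalization and library totals, in edgeR and without replicate 1 of C1C3c or either mCherry library, the log2 differences being -0.84 to -1.09 (limma adjusted p 0.0988 without replicate 1 of C1C3c). Smg1 in C1C3c, at 3654 and 3829, lay above both mCherry libraries, a log2 difference of 0.21 (SE 0.17, limma adjusted p 0.342).

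In C1+14, Upf2 and Upf3b fell (5.95% of all genes were called lower), and both rest on replicate 2. Upf2 had 1043 and 510.3 normalised reads and Upf3b had 482 and 252, so replicate 2 was far below replicate 1 in each. Without replicate 2 of C1+14, limma called 0 of the 7 members, and with only the compared groups in the fit it called 0 as well, against 2 by edgeR and 2 by DESeq2 on all libraries. That library also stood apart for genes with at most 44% GC, whose median log2 deviation from the table's mean was -0.46 there and -0.09 in replicate 1, and the transcripts of Upf2 and Upf3b have 43.5% and 42.7% GC. The part of this in the result was not tested. Smg5 in C1+14, at 2053 and 2123, had close replicates and stood at 57.3% of mCherry, a log2 difference of -0.80 (SE 0.15, limma adjusted p 0.00136) that was short of 2-fold. The libraries of C1+14 are of the high kind by high-copy share and those of mCherry of the low kind. Construct and kind of library cannot be told apart in this comparison either.

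**Figure D2:**
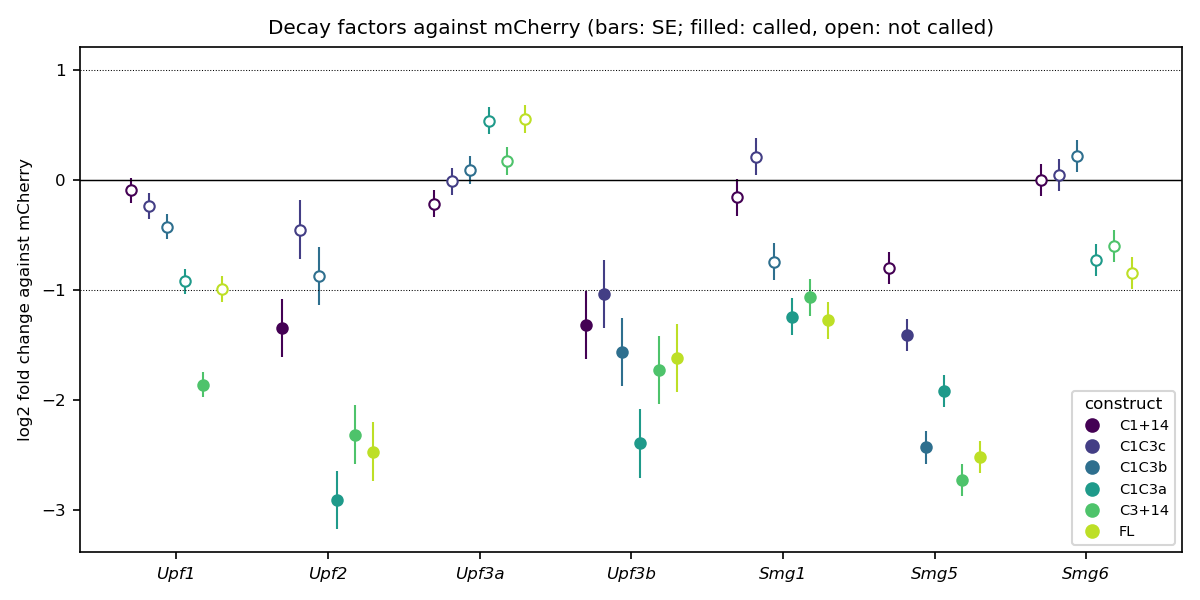
Log2 fold change against mCherry (y axis) of each decay factor (x axis) in the 6 constructs of the chimera table, with the SE as bars; filled points were called and open points were not. Upf3b is called lower in all 6 constructs and Smg5 in 5, while the points of Upf3a and Smg6 are all open.

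Levels of different genes can be compared only per length. Per kilobase of the longest transcript, the mCherry libraries held 819 ± 54.6 normalised reads of Smg5, 493 ± 19.2 of Upf1, 359 ± 4.67 of Upf2, 341 ± 16.4 of Upf3b, 294 ± 7.94 of Upf3a, 208 ± 9.17 of Smg1 and 177 ± 4.43 of Smg6 (SD, n = 2 each). Smg5 was thus the most abundant member without DUX. In FL the order was another one, with Upf3a first at 432 ± 36.5 per kilobase, Upf1 second at 248 ± 22.9 and Smg5 at 143 ± 14.8. Upf2 went from the third place to the last, at 64.8 ± 7.40, and Smg1 and Smg6 were next above it, at 86.3 ± 12.4 and 99.1 ± 18.4.

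Across the 7 groups the level of Smg5 ran from mCherry (3641 ± 243) through C1+14 (2088 ± 49.6), C1C3c (1379 ± 225), C1C3a (965 ± 145), C1C3b (673 ± 33.1) and FL (636 ± 65.7) to C3+14 (548 ± 7.83 normalised reads, SD, n = 2 each). Neighbours down to C1C3b differed at the adjusted p, with limma adjusted p values of 0.00136, 0.0164, 0.0093 and 0.00998. These steps depended on the scaling and fit. Over the alternatives given below, the log2 difference of C1C3c from C1C3a ran from -0.24 to 1.62. That of C1C3b from C1C3a ran from -0.80 to 0.31, so both changed sign, and that of C1C3c from C1+14 ran from -0.78 to -0.11. C1C3b and FL did not (adjusted p 0.634), nor did FL and C3+14 (adjusted p 0.275). Upf2 followed a different order, from mCherry (1857 ± 24.1) through C1C3c (1372 ± 281), C1C3b (1015 ± 83.4), C1+14 (777 ± 377), C3+14 (373 ± 31.8) and FL (335 ± 38.3) to C1C3a (248 ± 49.1). Of the neighbours in that order only C1+14 and C3+14 differed at the adjusted p (limma adjusted p 0.00677). C3+14 stood -0.97 from C1+14 on the log2 scale, short of 2-fold, and -1.97 to -0.46 over the alternatives. Upf2 had 1043 and 510 in the C1+14 libraries and 350 and 395 in those of C3+14, and the groups are of different kinds by high-copy share. By its means, Smg1 ran from C1C3c (3741 ± 124) through mCherry (3237 ± 143), C1+14 (2959 ± 813), C1C3b (1934 ± 99.3), C3+14 (1545 ± 133) and C1C3a (1367 ± 143) to FL (1343 ± 193). The gap between C1+14 and C1C3b was picked from these same means, so its limma adjusted p of 0.0124 is no test of a split into levels. C1C3b stood -0.59 from C1+14 on the log2 scale, short of 2-fold, and -1.01 to -0.30 over the alternatives. The C1+14 libraries lay far apart, at 3534 and 2384, against 1864 and 2004 in C1C3b.

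Among the 15 pairs of groups without mCherry, 26 member differences were called. Of all 21584 genes tested, limma called 1690 to 9627 per pair in either direction, so calls were common among genes at large. Against FL, limma called 0 members in C3+14 and in C1C3a (26.3% and 15.6% of all genes were called in either direction). edgeR and DESeq2 called 0 in both pairs too, and 2 members in each had an unadjusted limma p under 0.05, as did 49.2% and 37.4% of all genes. The larger of the differences in C3+14 was that of Upf1, with a log2 difference of -0.87 (SE 0.12, limma adjusted p 7.50e-05). Against FL, C1C3b was higher in Upf2 and Smg6 (23.3% of all genes were called higher). Smg6, at 1239 and 1167 in C1C3b, lay above all 4 libraries of FL and mCherry, and its log2 fold change against FL was 1.06 (SE 0.15, limma adjusted p 4.13e-05). Without replicate 2 of FL it was 0.87, short of 2-fold. C1C3c and C1+14 were each higher than FL in Upf2, Smg1 and Smg5 (21.2% and 18.4% of all genes were called higher). Of these differences from FL, Upf2 in C1C3c alone was still called under both corrections for transcript length and GC content described below. Smg5 in C1+14 kept its call under the robust one and was 0.57 under the other. Smg6 in C1C3b was 0.70 and 0.51 under the 2 and called in neither. Upf2 in C1+14 was 0.61 without replicate 1 of C1+14. Upf3a had its largest difference of the table between C1+14 and FL, at -0.77, which is short of 2-fold. Its F test over the 7 groups passed (limma adjusted p 0.000410), as did those of the other 6 members, with 89.9% of all genes passing.

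The remaining pairs separated the derivatives from each other. Against C1+14, 4 members were lower in C1C3a (Upf2, Upf3b, Smg1 and Smg5, with 17.3% of all genes called lower), 2 in C3+14 (Upf1 and Smg5, with 18.7%) and 1 in C1C3b (Smg5, with 11%). In C1C3a, Smg1 was -0.58 and -0.67 and Smg5 was -0.54 and 0.13 under the robust correction and that on all tested genes, none called. Upf3b there was -0.61 without replicate 1 of C1+14 and -0.94 without replicate 1 of C1C3a. With only the compared groups fitted, its limma adjusted p was 0.0644. Under the correction on all tested genes, Smg5 was -0.39 in C3+14 and -0.67 in C1C3b, neither called. Upf1 in C3+14 stood -1.77 (SE 0.12, limma adjusted p 3.25e-08) from C1+14 on the log2 scale, a difference between the low and the high kind of library that was -0.77 and -0.13, and not called, under the 2 corrections for transcript length and GC content described below. Against C3+14, 4 members were higher in C1C3c (Upf1, Upf2, Smg1 and Smg5, with 15.3% of all genes called higher) and 2 in C1C3b (Upf1 and Upf2, with 13.6%). C3+14 is of the low kind of library and C1C3b and C1C3c of the high kind, so construct and kind cannot be told apart here. In C1C3c, Smg1 was 0.77 and 0.95 and Smg5 was 0.80 and 0.29 under the same 2 corrections, none called. Under the correction on all tested genes, Upf1 was 0.52 in C1C3c and 0.82 in C1C3b, neither called. Among the C1C3 groups, C1C3c was higher than C1C3a in Upf2, Upf3b and Smg1 (17.5% of all genes) and higher than C1C3b in Smg5 (3.53%), and C1C3b was higher than C1C3a in Upf2 (18.3%). That Smg5 call was close to the limit, at 1.02, and was 0.79 and 0.56 under the 2 corrections. It was 0.97 without replicate 2 of C1C3b and 0.86 without replicate 1 of C1C3c. With only the compared groups fitted, its limma adjusted p was 0.0604. Smg1 between C1C3c and C1C3a was 0.70 and 0.71 under the 2 corrections, called in neither. The step of Upf2 from C1C3a to C1C3c was 2.46 (SE 0.27, limma adjusted p 5.46e-06) on the log2 scale. limma, edgeR and DESeq2 each called 0 members between C1C3c and C1+14 (7.83% of all genes were called by limma) and between C1C3a and C3+14 (14.9%), where 3 and 4 members had an unadjusted limma p under 0.05, as did 28.6% and 35.9% of all genes.

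The deletion table has no mCherry group, so its constructs were set against FL and against each other. Between C12345delt14 and FL, limma, edgeR and DESeq2 each called 0 members, 1 member had an unadjusted limma p under 0.05 (24.9% of all genes did), and limma called 0.958% of all 19833 genes tested. Its log2 differences from FL were between -0.49 (Upf3a) and 0.43 (Smg1). In deltC12345+14, Smg5, Upf2 and Smg1 rose relative to FL, and in deltC12345delt14, Smg5, Smg1 and Upf1 rose and Upf3a fell (18.4% and 18.8% of all genes were called higher, 20% and 20.3% lower).

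Smg5 had 839 and 737 normalised reads in FL on this table's scale, 816 and 1205 in C12345delt14, 2770.2 and 2785 in deltC12345+14 and 2925 and 2588 in deltC12345delt14. The libraries of the 2 constructs with deltC12345 all lay above those of FL and C12345delt14, and FL and C12345delt14 overlapped. The log2 fold changes from FL were 1.82 (SE 0.20, limma adjusted p 3.19e-04) for deltC12345+14 and 1.81 (SE 0.20, limma adjusted p 2.98e-04) for deltC12345delt14. Smg1 had 1484 and 1851 in FL, 1920.4 and 2585 in C12345delt14, 3901 and 4522 in deltC12345+14 and 4198 and 3161 in deltC12345delt14. All 4 libraries with deltC12345 lay above the other 4 again, and its log2 fold changes from FL were 1.34 and 1.14 (limma adjusted p 0.00159 and 0.00308). Upf1 had 1500.4 and 1339 in FL and 2779.5 and 3032 in deltC12345delt14, which did not overlap, and its log2 fold change was 1.03 (SE 0.16, limma adjusted p 0.00131). Under the correction for transcript length and GC content fitted on all tested genes (described below), Smg5 was 0.42 in deltC12345+14 and 0.22 in deltC12345delt14 (limma adjusted p 0.102 and 0.369), no longer called, and under the robust correction it was 1.21 and 1.05, both called. Smg1 was called under the first and, at 0.75 and 0.69, not under the robust one. Upf1 turned to -0.68 under the first and was 0.18 under the other. In deltC12345delt14 the calls were also lost for Smg1 without replicate 1 of FL (0.98) or of deltC12345delt14 (0.93), and for Upf1 without replicate 2 of FL (0.95) or of deltC12345delt14 (0.97).

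Upf2 had 446 and 386 normalised reads in FL, 504 and 562 in C12345delt14, 1159 and 1376 in deltC12345+14 and 1094 and 499 in deltC12345delt14. Replicate 2 of deltC12345delt14 stood at the level of C12345delt14, and replicate 1 near deltC12345+14. The rise in deltC12345+14 was called, the log2 fold change being 1.60 (SE 0.33, limma adjusted p 0.00506), and the difference in deltC12345delt14 was not, at 0.83 (SE 0.33, limma adjusted p 0.0642). In replicate 2 of deltC12345delt14 the genes with at most 44% GC had a median log2 deviation of -0.23, against 0.01 in replicate 1. These libraries are also of different kinds, with a high-copy share of 0.476% in replicate 1 and 2.65% in replicate 2. The part of either in the Upf2 values was not tested. Upf3a had 2084 and 1881 in FL, 1719.6 and 1024 in deltC12345+14 and 957 and 965 in deltC12345delt14. The 2 libraries of deltC12345+14, which are of different kinds by their high-copy share, lay far apart, and those of deltC12345delt14, also of different kinds, lay together at 48.5% of FL. The log2 fold change of Upf3a in deltC12345delt14 was -1.04 (SE 0.23, limma adjusted p 0.00688), and it fell short of 2-fold in edgeR (-0.94), under quantile normalization (-0.87) and without replicate 1 of FL (-0.97). Upf3b was the member whose F test over the 4 groups did not pass (limma adjusted p 0.282), whereas the other 6 did, with 49.6% of all genes passing.

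C12345delt14 was lower than deltC12345delt14 in 1 member, Smg5 (9.4% of all genes were called lower), and lower than deltC12345+14 in 2, Smg5 and Upf2 (8.27%). The log2 fold changes of Smg5 were -1.47 (SE 0.20, limma adjusted p 0.00151) and -1.48 (SE 0.20, limma adjusted p 0.00159). They were -0.92 and -1.09 under the robust correction, the first not called, and -0.25 and -0.44 under the correction on all tested genes, neither called. The Upf2 call was lost when any 1 of the 4 libraries was left out, with log2 differences of -1.37 to -1.12 (limma adjusted p 0.0599 to 0.169). Between deltC12345+14 and deltC12345delt14, limma called 0 members and 0% of all genes, and 1 member had an unadjusted p under 0.05 (2.74% of all genes did). edgeR and DESeq2 called 0 members as well, and 0 and 4 genes of all. The log2 differences there were between -0.26 and 0.77, the ends being Upf1 and Upf2.

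**Figure D3:**
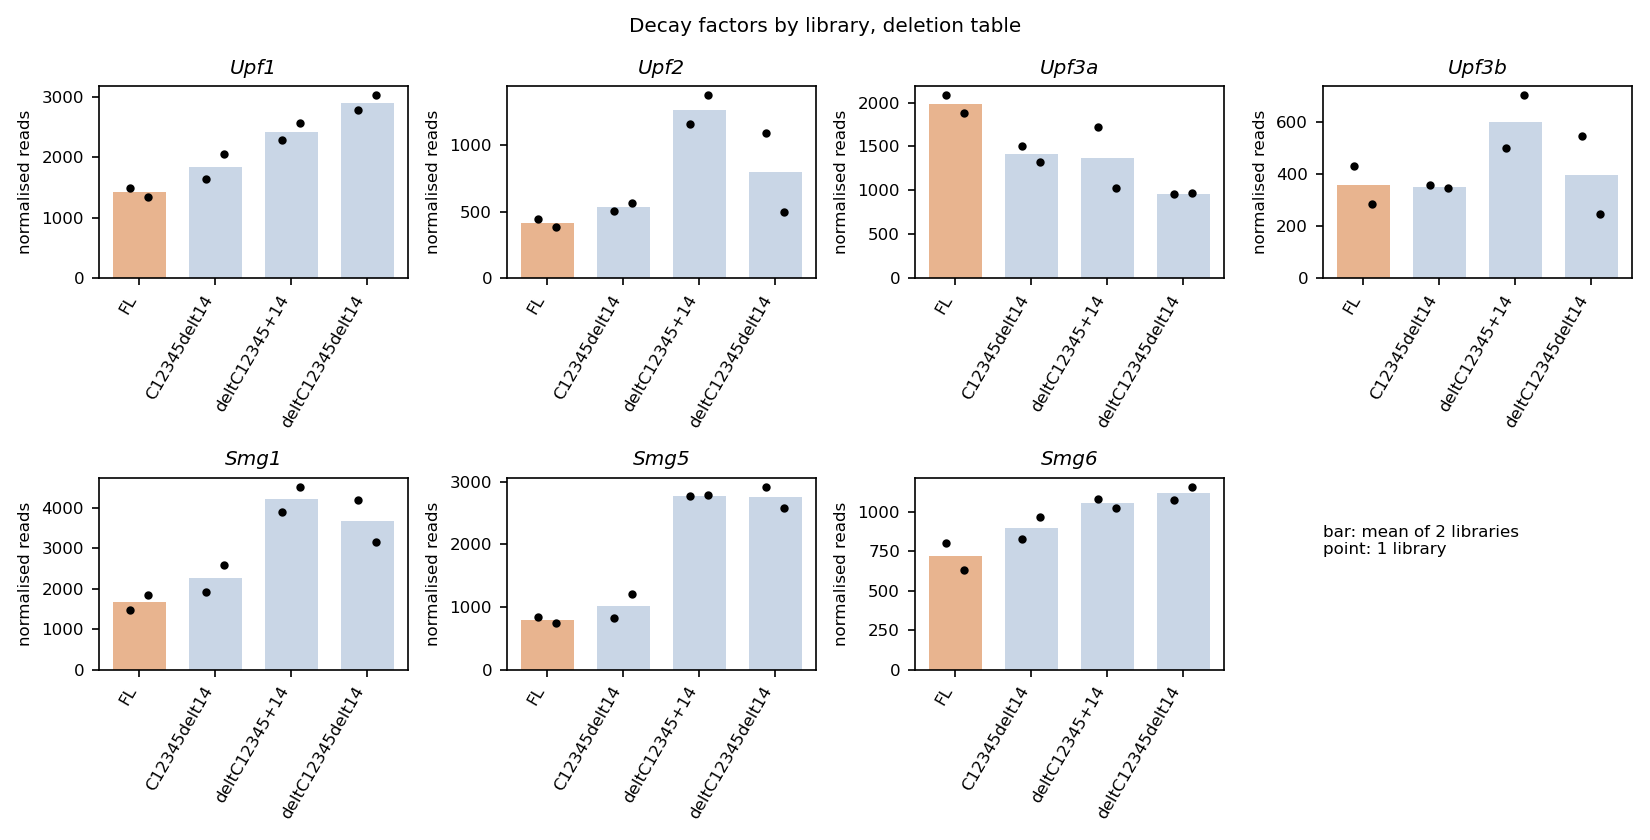
Normalised reads of the 7 decay factors in the deletion table; groups are on the x axis, bars are the mean of 2 libraries and points are single libraries. Smg5 and Smg1 are high in deltC12345+14 and deltC12345delt14 and low in FL and C12345delt14, and the replicates of deltC12345delt14 lie apart for Upf2 and Upf3b.

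Among 15 other genes of the pathway, 3 rose and 4 fell in FL against mCherry, shares near those of all genes (24.5% called higher and 19.6% lower), and their median log2 fold change was -0.02. Pnrc2, a decapping adaptor of UPF1, fell from 1234 ± 81.3 to 149 ± 95.9 normalised reads (SD, n = 2), with a log2 fold change of -3.21 (SE 0.34, limma adjusted p 3.40e-06), and Smg9, a subunit of the SMG1 complex, fell from 425 ± 19.9 to 152 ± 22.8. The decapping genes Dcp1a and Dcp2 fell too, with log2 fold changes of -1.82 and -1.52. Smg8, the other SMG1 subunit, was not called, with a log2 difference of -0.23 (SE 0.20, limma adjusted p 0.347) and its FL libraries far apart, at 918 ± 344. The 3 that rose were Nbas (1.26 on the log2 scale) and Dhx34 (1.02), which are decay factors, and Magohb (2.11), a subunit of the exon junction complex. Of the 50-base words of Magohb, 25.8% occur in another gene, and how such reads were counted is not given in the sources used here. Nbas rose in all 6 constructs of the chimera table, by 1.02 to 1.57.

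A list of 9 transcripts known to be degraded by this pathway was taken from general knowledge. In FL, 8 of the 9 fell, with a median log2 fold change of -1.85, where 19.6% of all genes were called lower. Atf4, a stress-response transcription factor, fell from 5727 ± 76.2 to 857 ± 26.7 normalised reads, and the growth-arrest non-coding RNA Gas5 from 3563 ± 0.290 to 1135 ± 505. Snhg1, Snhg12 and Zfas1, host genes of small nucleolar RNAs, had log2 fold changes of -1.85, -3.03 and -2.50. In these genes 5.90%, 12.6% and 16.4% of the 50-base words occur in another gene. The log2 fold changes of Gadd45a, Ddit3 and Tbl2 were -2.04, -1.43 and -1.34, and Gadd45b was at -0.14 (limma adjusted p 0.539). Gas5, Snhg1, Snhg12, Zfas1 and Atf4 were called lower in each of the 6 constructs, C1+14 included. Except in C3+14, construct and kind of library cannot be told apart in these calls. The transcripts of Gas5 and Snhg1 have 42.3% and 40.5% GC. Genes with at most 44% GC were low in replicate 2 of C1+14 (median log2 deviation -0.46), and the part of this was not tested. Results without single libraries or under the length and GC corrections described below are not given for the 9 transcripts. Against FL, 7 of the 9 rose in deltC12345+14 and 7 in deltC12345delt14, where 18.4% and 18.8% of all genes were called higher. Steady-state levels hold both synthesis and decay, and decay itself was not measured.

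**Figure D4:**
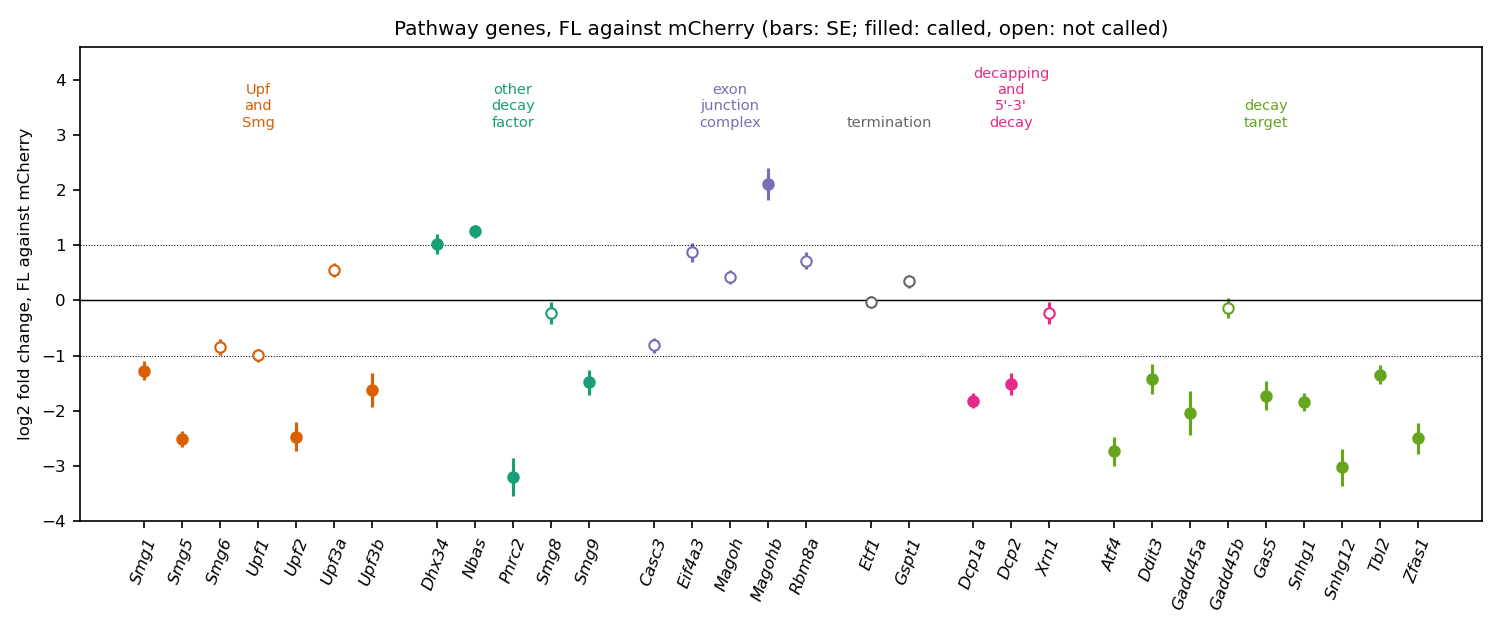
Log2 fold change of FL against mCherry (y axis) for the decay factors, 15 other genes of the pathway and 9 known decay targets (x axis, grouped by role), with the SE as bars; filled points were called and open points were not. Of the decay targets 8 of 9 are called lower, and the exon junction complex has 1 called gene, Magohb, which is higher.

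Several of these values depend on how libraries are put on one scale. In FL, genes with transcripts over 5000 bases had a median log2 deviation of -0.40 and -0.32, and genes of up to 2000 bases one of 0.65 and 0.48, against 0.08 and 0.10, and -0.23 and -0.25, in mCherry. The longest transcripts of the members run from 2553 bases (Upf3b) to 15557 (Smg1). The trend over length and GC content was subtracted in 2 ways, both added after the data had been seen. With the trend fitted on all tested genes, FL against mCherry gave -1.29 for Smg5, -1.98 for Upf2, -1.57 for Upf3b and -0.998 for Smg1 on the log2 scale, and turned Upf1 to 0.31 and Smg6 to 0.12. With a robust trend fitted on genes with a mean of at least 200, Upf1 was -0.49, Smg6 was -0.34 and Smg1 was -0.80, which is no longer called. The decrease of Upf1 in C3+14 went from -1.86 to -0.12 and -0.92 under these 2 fits and was called in neither. Smg5, Upf2 and Upf3b were called lower in FL under both fits. Over the 27 comparisons, 27 of the 55 called member differences were still called with the trend of all tested genes and 34 with the robust trend. Among those lost with the former was Smg5 against mCherry in C1C3a (-0.58) and in C1C3c (-0.82). Smg1 against mCherry in C1C3a was -0.99 with the trend of all tested genes and -0.92 with the robust trend, called in neither. In C3+14 Smg1 was -0.99 with the robust trend, not called.

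Scaling by library totals, also added later, moves FL as a whole, because the median log2 fold change over all genes becomes -0.87 in place of 0.09 and the share of calls that are higher becomes 28.0% in place of 55.5%. On that scale 6 members were called lower in FL, with -2.02 for Upf1 and -1.88 for Smg6, and Upf3a turned to -0.48. Of all 21584 genes, 12818 were called there in either direction, most of them lower, against 9531 on the authors' scale. Upf3a also turned in C3+14 (-0.62) and in C1C3a (-0.38). Relative to the median gene, Upf3a remained on the higher side in FL under both scalings. Quantile normalization, which lowers the share of FL calls that are higher to 41.2%, gave log2 fold changes of -2.61 for Smg5, -2.47 for Upf2 and 0.46 for Upf3a. Its median over all genes in FL was -0.27.

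**Figure D5:**
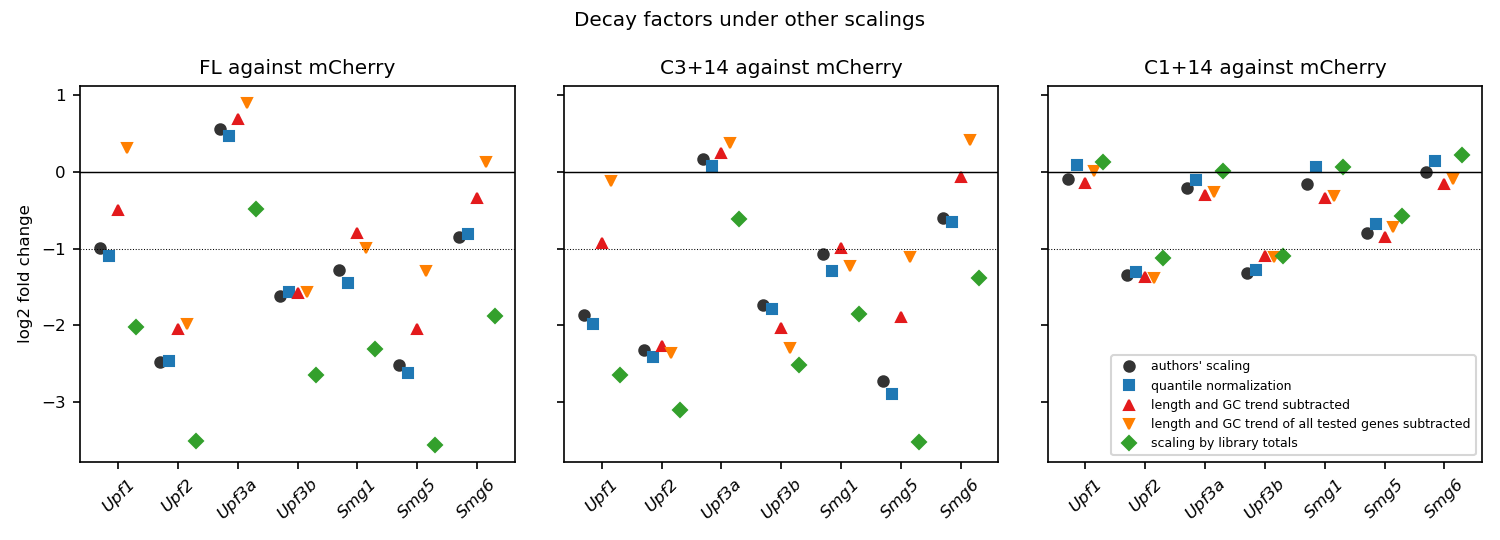
Log2 fold change against mCherry (y axis) of the 7 decay factors (x axis) in FL, C3+14 and C1+14 under the authors' scaling, quantile normalization, 2 corrections for transcript length and GC content, and scaling by library totals; the dotted line marks a 2-fold decrease. Smg5, Upf2 and Upf3b stay below the dotted line in FL and C3+14 under all 5, while Upf1, Upf3a and Smg6 change sign among the 5 in FL, Upf3a and Smg6 in C3+14, and Upf1, Upf3a, Smg1 and Smg6 in C1+14.

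For each member the gene most like it over the 14 libraries of the chimera table was found by Pearson's r of the log2 values among 13517 genes with a mean of at least 50. Libraries fall into groups and share depth and composition, so r is a description. The closest were Ctdsp1 for Upf1 (r = 0.985), Ubn2 for Upf2 (0.984), Wdr83 for Upf3a (0.960), Map9 for Upf3b (0.964), Pds5a for Smg1 (0.970), Mnt for Smg5 (0.990) and Faf2 for Smg6 (0.979). The number of genes above r = 0.9 was lowest for Upf3b, at 20, and highest for Smg5, at 294.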

How the data were processed

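Values are deposited gene counts divided by 1 size factor per library, which is a normalised signal, per the file headers and the values. Low values step by what 1 read is worth, and dividing by that step gave whole reads for 100% of 1220714 values (tolerance 1e-06 reads). Trim Galore 0.5.0, FastQC, DESeq2 and mm10 are named in the submitters' processing notes. The aligner, the counting program, its use of strand and the annotation are not given in the sources used here. Symbols and coordinates are from GENCODE M21 (GRCm38), which named 55227 of 55487 genes (99.5%), and promoters are from RefSeq (GRCm38.p6), which held all 7 members.

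The main test was limma 3.58.1 (R 4.3.3) on log2(value + 1), with eBayes and a trend, for genes with at least 10 in at least 2 libraries. All groups of a table shared 1 fit, and Benjamini-Hochberg adjustment covered every gene tested: 21584 (chimera table) and 19833 (deletion table). Fold changes are on that log2 scale. The members, lists and tests were chosen with earlier results of these data known. Named genes were the members, 15 further pathway genes (with values for Smg8, Smg9 and those called in FL), 9 decay targets and the gene most like each member. 1 further gene of the pathway list is not reported here. With 2 libraries against 2, an exact permutation test cannot give a p below 0.333. Alternatives were edgeR 4.0.16 and DESeq2 1.42.0 on recovered reads, other pseudocounts, filters and scalings, a replicate block, fits of the compared groups alone and leaving out each library. limma was tested on simulated data. Reads of replicates differed beyond sampling noise in every group.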

Additional observations from a re-analysis of the deposited data

How the results depend on the processing

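Under pseudocounts of 8 and 0.1, quantile normalization, no filter, edgeR, DESeq2 and fits of the compared groups, all 55 called member differences (of 189 over 27 comparisons) kept their direction. Other scalings were added after the data had been seen. A correction for transcript length and GC content fitted on all tested genes was run first and kept the direction of 53 of the 55. Its values had been seen when a robust fit on genes with a mean of at least 200 was chosen in its place, so both are given. The robust fit kept 55. Calls were kept for 27 and 34 of the 55 under these 2 fits. Scaling by library totals kept 54. The 3 reversals were Smg5 between C1C3a and C1+14 (0.13) and Upf1 between deltC12345delt14 and FL (-0.68, limma adjusted p 0.00566) under the length and GC trend of all tested genes, and Upf3a between deltC12345delt14 and FL (0.13) under library totals. The cause of the first 2 was not tested. Library totals moved the median of all genes between deltC12345delt14 and FL from -0.11 to 1.05, so Upf3a stayed below the median gene.

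Counts of members called also moved. By the adjusted p alone, FL and C1C3a had 7 against mCherry and C1C3b had 5, where 13075, 13558 and 13105 of all genes were called. The 15 pairs without mCherry had 64 in place of 26, and the share of all genes at that threshold is not given for them. deltC12345+14 had 5 against FL and C12345delt14 had 3 against deltC12345delt14, where 10569 and 6387 of all genes were called. C1C3c had 1 against mCherry under quantile normalization, edgeR, library totals and the correction on all genes. In these, 5727, 6395, 6361 and 5871 of the 21584 genes tested were called. Under the robust correction C3+14 had 3, C1C3b 4, the 15 pairs 13, deltC12345delt14 against FL 2, and C12345delt14 against deltC12345delt14 0. Genes called among all tested were, in the same order, 9675 and 9055 of 21584, 1047 to 8994 per pair, and 6975 and 3784 of 19833. Under the correction on all genes C1C3a had 2, C1C3b 4, the 15 pairs 14, deltC12345delt14 against FL 2, and C12345delt14 against deltC12345delt14 0 and against deltC12345+14 1. In that order, the genes called were 10013 and 9282 of 21584, 1058 to 9298 per pair, and 7655, 4461 and 4307 of 19833. Under library totals the 15 pairs had 53, deltC12345+14 against FL 6, and C12345delt14 against deltC12345delt14 4 and against deltC12345+14 5. In the last 3 of these comparisons, 11672, 6985 and 6934 of the 19833 genes tested were called on that scale. For the 15 pairs it was 1613 to 12621 of 21584 per pair. With only the compared groups fitted, C1+14 had 0 against mCherry, and with no filter C12345delt14 had 1 against deltC12345+14. There, 2973 and 3440 of all genes were called.

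Leaving out 1 library at a time gave, against mCherry, 4 to 6 members for FL, 4 to 5 for C3+14, 4 for C1C3a, 2 for C1C3b, 1 to 2 for C1C3c and 0 to 2 for C1+14, and 23 to 28 for the 15 pairs. It gave 0 for C12345delt14 against FL, 3 for deltC12345+14, 2 to 4 for deltC12345delt14 (2 without FL replicate 1), 1 to 2 for C12345delt14 against each of the others, 0 between those, and 7 and 3 to 5 members passing the F test in the chimera and deletion tables. C1C3c had 1 without its replicate 1 or either mCherry library, C1+14 had 0 without its replicate 2, and C12345delt14 had 2 against deltC12345delt14 without replicate 2 of the latter, and 1 against deltC12345+14 without its own replicate 1 or replicate 2 of deltC12345+14. A group left with 1 library is assumed to vary like the others.

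Same-numbered replicates did not deviate together in the chimera table (correlation of replicate differences -0.101 to 0.050 over 21 pairs of groups). In the deletion table the correlations ran from -0.574 to 0.135 over 6 pairs of groups. At the low end, libraries with different numbers deviated together, so the numbers do not pair the libraries. A replicate block follows the numbers and does not model the kind of library, whose part was not tested. With the replicate block, 4 members were called for FL against mCherry and 26 over the 15 pairs, no member call changed, and 5 members in place of 6 passed the F test of the deletion table.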
